A study of Mus musculus with 21 samples.

Results

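The genes described here are those of the fibroblast growth factor (FGF), bone morphogenetic protein (BMP) and growth and differentiation factor (GDF) families in germ cells from the testes of young mice. They were chosen by symbol alone, as the rows whose gene name is Fgf, Bmp or Gdf followed by a number and at most a letter a or b, which gave 43 of the 37620 genes in the table. These were 22 Fgf, 11 Bmp and 10 Gdf genes. The study mapped where the meiotic protein PRDM9 binds DNA and measured RNA to relate gene activity to the use of those sites. All RNA came from C57BL/6J (B6) males at 12 days post-partum (dpp), labelled as spermatocytes with no treatment named, from cells enriched for the germ line with collagenase and trypsin. There were 12 libraries, 3 for each of the sample numbers 186wt, 343wt, 444wt and 456wt, and the 9 other samples of the series were not analysed here. The labels do not say whether the sample numbers are separate animals or pools. With a single condition, the comparisons are of levels between genes and of the 4 sample numbers with each other.

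FGFs bind receptor tyrosine kinases on the cell surface, and BMPs and GDFs bind paired type I and type II serine/threonine kinase receptors that phosphorylate SMAD proteins. In the testis these ligands pass between germ cells, the Sertoli cells that nurse them, the peritubular myoid cells that wrap the tubules and the cells of the interstitium, and they are known for roles in spermatogonial renewal, differentiation and fertility. Members of the families that are not such ligands also carry these names. Bmp1 encodes a metalloproteinase that cleaves procollagen and the BMP antagonist chordin, and Fgf11, Fgf12, Fgf13 and Fgf14 encode FGF homologous factors, which stay inside the cell and bind sodium channels.

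Levels are given as FPKM, which are fragments scaled to the length of the transcript and to the library and can be compared between genes. The table gives no counts, and depth was estimated from the steps between low values at 12.2 to 17.2 M (mega) fragments per library and 177 M in all. In 5935 genes with 1 annotated transcript and enough fragments, the variance between the 3 libraries of a sample number was at the median 0.952 times that expected from counting, so such libraries differed by no more than sampling noise. Over the 33 members with enough fragments it was 1.19 times at the median, with 0.939 for the 10 members with 1 transcript and 1.74 for the 23 with several. For levels, the 3 libraries were therefore averaged and counted as 1 sample, and each mean ± SD is over the 4 sample numbers. The tests used the 12 libraries without averaging. Their p-value between sample numbers thus measures the difference against a spread between libraries that may be technical only. Messages of meiotic prophase were present, as their label says, with all 8 markers at 5 FPKM or more (Sycp3, of the synaptonemal complex, at 73.1 FPKM), but markers of somatic testis cells were present too. All 9 Sertoli cell markers measured were above 1 FPKM, led by Clu, which encodes the secreted chaperone clusterin, at 1844 FPKM, and so were the 6 peritubular myoid cell markers, led by the smooth muscle actin gene Acta2 at 473 FPKM. In such bulk RNA fewer cells of a type and less RNA per cell cannot be told apart, and the cell type that made each ligand message was not measured.

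Of the 43 genes, 30 had a mean of at least 0.1 FPKM and 15 of at least 1 FPKM. Their share of 69.8% at the lower bound stood beside 55.3% of all genes and 74.2% of protein-coding genes, and their share of 34.9% at the upper bound beside 58.7% of protein-coding genes, so the families were not detected more often than other protein-coding genes. The median member was at 0.357 FPKM. All members together summed to 77.2 FPKM, of which Bmp1 and the 4 FGF homologous factors gave 42.0 FPKM and the 38 other genes 35.2 FPKM. The most abundant gene for a secreted ligand was Bmp7, at place 8509 of all genes by mean level.

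**Figure D1:**
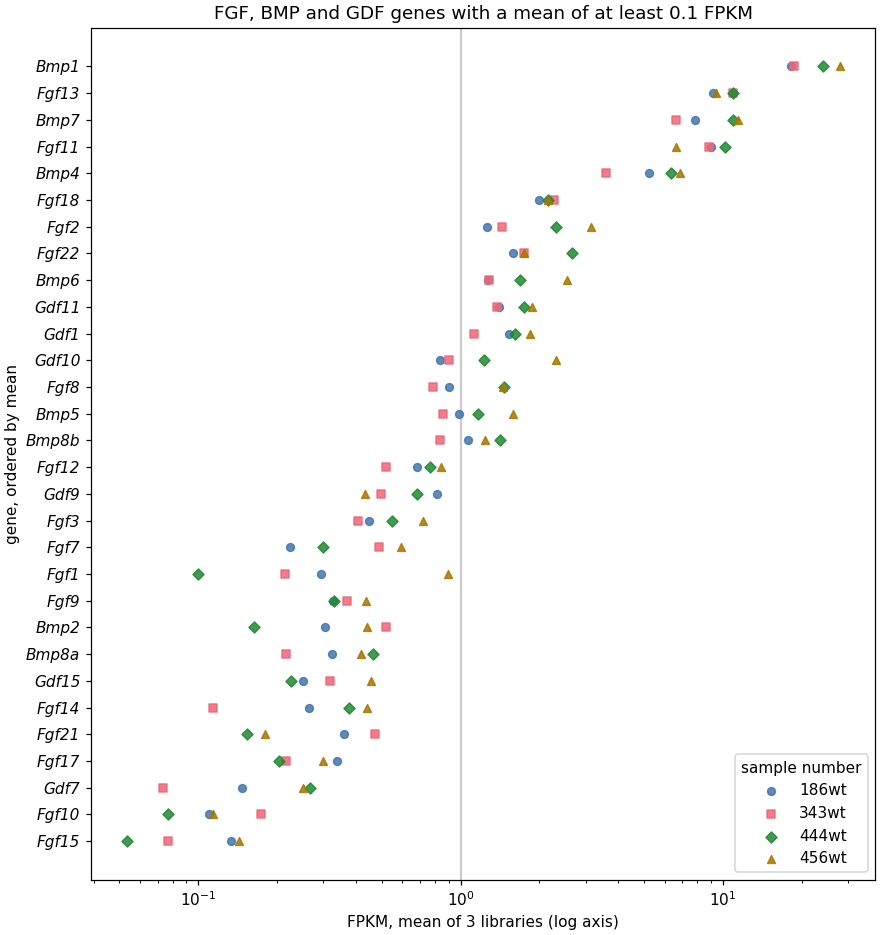
Mean FPKM of the 3 libraries of each sample number on a log axis, for the 30 members that reached a mean of 0.1 FPKM, ordered by their mean. The line marks 1 FPKM, and levels run from Bmp1 at 22.2 FPKM to Fgf15 at 0.102 FPKM.

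Among the BMP ligands, Bmp7, which signals through SMAD1 and SMAD5 and is known for kidney and skeletal development, was the highest. Bmp7 (ENSMUSG00000008999, NCBI build 37 chr2:172693513-172765822, minus strand) was at 7.85 FPKM in 186wt, 6.66 in 343wt, 10.97 in 444wt and 11.4 in 456wt, with a mean of 9.23 ± 2.34 FPKM (SD, n = 4). The libraries of 444wt and 456wt were all above those of 186wt and 343wt, without overlap. Bmp4, which acts in germ cell specification in the embryo and on spermatogonia after birth, lies at chr14:47003195-47010344 on the minus strand and was at 5.21 FPKM in 186wt, 3.58 in 343wt, 6.34 in 444wt and 6.88 in 456wt. Its 3 libraries of 343wt were below all 9 others. Bmp2, the closest relative of Bmp4, was far lower at 0.357 ± 0.157 FPKM (SD, n = 4) and ran in another order, with 444wt lowest (0.163 FPKM) and 343wt highest (0.52 FPKM).

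The BMP5/6/7/8 subfamily had all 5 genes above 0.1 FPKM and 4 above 1 FPKM. Bmp6, a regulator of iron balance and bone, was at 1.28 FPKM in 186wt, 1.29 in 343wt, 1.68 in 444wt and 2.55 in 456wt. Bmp5, known for cartilage and limb growth, was at 0.983 FPKM in 186wt, 0.857 in 343wt, 1.17 in 444wt and 1.58 in 456wt. In both genes 456wt stood above the other sample numbers in each of its libraries. For Bmp5, 46.7% of the exon bases overlap the long noncoding gene Gm16662 on the opposite strand, and since no strand setting is stated for the alignment the reads of this pair cannot be told apart.

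Bmp8b and Bmp8a, known for roles in the start and upkeep of spermatogenesis, are neighbouring copies on chromosome 4. Bmp8b was at 1.07 FPKM in 186wt, 0.833 in 343wt, 1.41 in 444wt and 1.24 in 456wt, and Bmp8a was at 0.355 ± 0.109 FPKM (SD, n = 4) with sample numbers from 0.217 to 0.463 FPKM. Their coding sequences of 1200 bases were 88.0% identical, with 144 differing bases and the longest identical run at 182 bases. Of all 100-base words in their transcripts, which is the length of 1 read, 3.84% for Bmp8b and 4.54% for Bmp8a were found in the other gene, and reads from such words are divided between the copies by estimate. The stretches with the fewest and the most differences are shown because they set where reads could tell the copies apart. They are 120 coding bases each, from GENCODE M1 transcripts on NCBI build 37, in the direction of the gene, and capitals mark bases that differ between the copies. The first pair covers coding bases 325 to 444, with 0 differences, and the second pair coding bases 1045 to 1164, with 28 differences. With introns included, the first pair spans chr4:123002413-123019627 (minus strand) in Bmp8a and chr4:122782918-122791929 (plus strand) in Bmp8b, and the second chr4:122990546-122993092 and chr4:122800295-122801744.
Bmp8a, fewest differences: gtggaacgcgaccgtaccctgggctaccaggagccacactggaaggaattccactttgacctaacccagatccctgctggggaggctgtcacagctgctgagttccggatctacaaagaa
Bmp8b, fewest differences: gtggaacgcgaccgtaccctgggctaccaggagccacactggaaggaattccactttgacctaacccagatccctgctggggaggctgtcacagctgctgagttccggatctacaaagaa
Bmp8a, most differences: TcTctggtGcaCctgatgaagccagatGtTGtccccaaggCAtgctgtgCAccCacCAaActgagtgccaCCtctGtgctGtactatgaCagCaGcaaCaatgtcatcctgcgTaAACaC
Bmp8b, most differences: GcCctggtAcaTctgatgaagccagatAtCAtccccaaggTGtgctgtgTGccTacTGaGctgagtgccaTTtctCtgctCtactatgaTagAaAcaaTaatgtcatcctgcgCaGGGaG

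The protease gene Bmp1 was the highest of all members, at 18.2 FPKM in 186wt, 18.7 in 343wt, 24.1 in 444wt and 27.9 in 456wt (mean 22.2 ± 4.63, SD, n = 4). Its libraries in 456wt did not overlap those of any other sample number. Gdf10, also called BMP3B and grouped with the BMP antagonist-like Bmp3, was at 0.837 FPKM in 186wt, 0.907 in 343wt, 1.22 in 444wt and 2.32 in 456wt, and its 3 libraries of 456wt lay between 2.28 and 2.38 FPKM while the highest of the others was 1.24 FPKM. Bmp3 itself was at 0.0567 FPKM, with 1 of 12 libraries at 0. Bmp10 and Gdf2 (also called BMP9), the ligands of the endothelial receptor ALK1, were at the bottom of the families. Bmp10 was at 0 in all 12 libraries, which at this depth allows up to 0.0136 FPKM (3 fragments over all libraries, counting error only), and Gdf2 was above 0 in 2 of 12 libraries with a mean of 0.005 FPKM.

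Among the GDF genes, Gdf11, which patterns the axial skeleton, was at 1.41 FPKM in 186wt, 1.38 in 343wt, 1.75 in 444wt and 1.87 in 456wt. The sample numbers overlapped, and the limma F-test across them gave an adjusted p of 0.0608. Gdf1, which sets left-right asymmetry in the embryo, had a mean of 1.53 FPKM in 186wt, 1.13 in 343wt, 1.61 in 444wt and 1.83 in 456wt, but its libraries did not agree. They ran from 0.18 to 3.96 FPKM, and within 444wt alone they were 1.87, 2.72 and 0.24 FPKM. This variance was 19.0 times that expected from counting, the highest of the 33 members with enough fragments to compare. All exon bases of Gdf1 (chr8:72853664-72855486, plus strand) lie in exons of Lass1, a ceramide synthase gene that shares its transcript on the same strand, and 1302 of its 1302 words of 100 bases occur in Lass1, which was at 0.95 to 2.59 FPKM in the 12 libraries. The Gdf1 value is therefore uncertain in every library.

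The oocyte factors Gdf9 and Bmp15, which form a pair in the ovarian follicle, were unequal here. Gdf9 was at 0.606 ± 0.173 FPKM (SD, n = 4), from 0.433 to 0.813 FPKM over the sample numbers, and Bmp15 was at 0.0242 FPKM with 5 of 12 libraries at 0. Gdf15, a stress-induced cytokine, was at 0.312 FPKM (0.227 to 0.457 FPKM), and Gdf7, of the joint and tendon subfamily GDF5/6/7, at 0.184 FPKM (0.0733 to 0.267 FPKM). The relatives of Gdf7 fell below the bound. Gdf6 was at 0.0942 FPKM with no library at 0, and Gdf5 at 0.0225 FPKM with 7 of 12 libraries at 0, while 36.4% of its words of 100 bases are shared with the overlapping gene Gm15557. Gdf3, a Nodal-like factor of pluripotent cells, was at 0.0558 FPKM with 1 library at 0.

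Among the FGF genes, the intracellular Fgf13 and Fgf11 were well above the highest FGF that acts outside the cell, Fgf18. Fgf13, on the X chromosome at chrX:56315322-56821248, was at 9.18 FPKM in 186wt, 10.9 in 343wt, 10.9 in 444wt and 9.39 in 456wt. Fgf11 was at 9.01 FPKM in 186wt, 8.87 in 343wt, 10.2 in 444wt and 6.6 in 456wt, with the libraries of 456wt (6.43 to 6.73 FPKM) below all others. Their relatives Fgf12 and Fgf14 were low, at 0.702 FPKM (0.52 to 0.84 FPKM) and 0.298 FPKM (0.113 to 0.44 FPKM). The libraries of Fgf12 varied by 12.8 times the counting variance, between 0.12 and 1.26 FPKM, in a gene with 3 annotated transcripts.

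Of the FGFs that act outside the cell, 4 reached 1 FPKM. Fgf18, an FGF8 subfamily ligand known from bone and lung, was the highest, with 1.99 FPKM in 186wt, 2.27 in 343wt, 2.15 in 444wt and 2.15 in 456wt, and its libraries overlapped in all sample numbers. Fgf2, the basic FGF that is used to culture spermatogonial stem cells, was at 1.26 FPKM in 186wt, 1.43 in 343wt, 2.32 in 444wt and 3.15 in 456wt. Every library of 444wt and 456wt was above those of 186wt and 343wt, although 9.24% of its words of 100 bases are shared with the antisense gene Nudt6. Fgf22, a presynaptic organizer, was at 1.58 FPKM in 186wt, 1.74 in 343wt, 2.65 in 444wt and 1.74 in 456wt, with libraries from 0.81 to 3.16 FPKM. Fgf8, a patterning ligand of limb and brain, was at 0.907 FPKM in 186wt, 0.787 in 343wt, 1.47 in 444wt and 1.45 in 456wt.

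The other FGFs were below 1 FPKM. Of the FGF7 subfamily, which acts from mesenchyme on epithelium, Fgf3 was at 0.53 FPKM (0.407 to 0.72 FPKM), Fgf7 at 0.401 FPKM (0.223 to 0.593 FPKM) and Fgf10 at 0.118 FPKM (0.0767 to 0.173 FPKM). Fgf9, which drives testis determination in the fetal gonad, was at 0.366 FPKM (0.327 to 0.437 FPKM), and Fgf17, of the FGF8 subfamily, at 0.264 FPKM (0.203 to 0.337 FPKM). Fgf1, the acidic FGF, had the widest spread of the tested members, at 0.293 FPKM in 186wt, 0.213 in 343wt, 0.1 in 444wt and 0.897 in 456wt. The hormone-like FGFs were near the bound, with Fgf21 at 0.291 FPKM (0.153 to 0.47 FPKM), Fgf15 at 0.102 FPKM (0.0533 to 0.143 FPKM) and Fgf23 at 0.0292 FPKM with 4 of 12 libraries at 0.

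None of the 3 genes of the FGF4 subfamily, which act in the early embryo, in hair and in muscle, reached 0.1 FPKM. Fgf5 was at 0.0742 FPKM with no library at 0, Fgf4 at 0.0333 FPKM with 3 libraries at 0, and Fgf6 at 0.00917 FPKM with 10 libraries at 0. The relatives of Fgf9 were also low. Fgf16 was at 0.06 FPKM with 3 libraries at 0, and Fgf20 was at 0 in all 12 libraries, which allows up to 0.0121 FPKM.

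The upstream sequences of the genes were read from RefSeq (GRCm38.p6), in which 29 of the 43 members were matched by symbol, as the 250 bases before each transcription start. The GC box letters GGGCGG, on either strand, were found for 10 of the 12 matched members at 1 FPKM or more, 6 of the 10 members between 0.1 and 1 FPKM and 3 of the 7 members under 0.1 FPKM, against 35.4% of the 27025 genes in the same table. CG pairs had a median of 18.5, 8.5 and 6 in these sets and of 6 in all genes. The exceptions at the upper end were Fgf11 and Bmp5, with 5 and 4 CG pairs and no GC box. At the lower end they were Fgf5, Fgf4 and Fgf6, with 24, 21 and 9 CG pairs and a GC box. The letters TATAAA were found for 4 of the 29 members (13.8%) and for 14.3% of all genes. A gene with several starts was counted if any of them matched, with its highest number of CG pairs. No share was computed for other genes of the same level, so these counts do not show a trait of the families. The sequences of Bmp4, of Gdf10, which among members at 1 FPKM or more had the widest log2 difference of 456wt (given with the contrasts), and of Bmp10, at 0 in all libraries, are shown to let these ends be compared. Each runs 5′ to 3′ toward the start, and capitals mark GGGCGG or its complement CCGCCC. They lie at chr14:46390670-46390919 (minus strand), chr14:33923337-33923586 (plus strand) and chr6:87428744-87428993 (plus strand) of GRCm38.p6. Bmp4 held 11 CG pairs, Gdf10 held 35 and Bmp10 held 3. A match is a description of letters and not of a bound site.
Bmp4: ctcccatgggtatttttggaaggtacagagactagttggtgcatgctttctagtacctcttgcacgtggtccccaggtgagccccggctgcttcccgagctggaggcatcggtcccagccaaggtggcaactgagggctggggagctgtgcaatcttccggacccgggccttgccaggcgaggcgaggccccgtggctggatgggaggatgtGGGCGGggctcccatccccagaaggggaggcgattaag
Gdf10: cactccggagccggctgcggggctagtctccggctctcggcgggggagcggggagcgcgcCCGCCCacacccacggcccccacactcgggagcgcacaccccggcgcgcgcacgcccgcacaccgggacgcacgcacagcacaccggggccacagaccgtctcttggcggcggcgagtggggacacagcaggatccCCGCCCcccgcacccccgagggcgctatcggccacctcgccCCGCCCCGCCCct
Bmp10: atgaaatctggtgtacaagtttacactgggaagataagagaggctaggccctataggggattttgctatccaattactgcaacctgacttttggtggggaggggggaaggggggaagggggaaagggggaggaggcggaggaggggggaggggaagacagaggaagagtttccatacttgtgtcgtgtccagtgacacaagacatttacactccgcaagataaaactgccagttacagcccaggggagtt

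To ask which of these messages varied between the 4 sample numbers, the limma F-test on log2(FPKM + 0.1) was run over the 20795 genes whose mean reached 0.1 FPKM. It called 13 of the 30 members at an adjusted p under 0.05. Over all genes 58.2% were called, so the families as a whole were called no more often than other genes. Calls followed the level, with 75.8% of genes at 1 FPKM or more called and 19.2% of those between 0.1 and 1 FPKM, and the members ran at 10 of 15 and 3 of 15. The called members were Bmp1, Bmp7, Bmp4, Bmp6, Bmp5, Bmp2, Gdf10, Fgf13, Fgf11, Fgf2, Fgf8, Fgf1 and Fgf14. By subfamily, 6 of the 8 BMP genes and 1 of the 6 GDF genes tested passed, beside 6 of the 16 FGF genes. The median range between the highest and lowest sample number was 0.82 on the log2 scale over the 30 members and 0.55 over all genes tested. The members tested were lower in level, with 15 of 30 between 0.1 and 1 FPKM, beside 6447 of the 20795 genes. The median range was not computed for genes of the same level. These medians therefore do not show that the families varied more than other genes.

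Sample number 456wt had the most called differences. Against the mean of the other 3 sample numbers, 9 members were higher in 456wt and 1 lower (adjusted p under 0.05, limma contrast), where 22.9% of all genes were higher and 13.6% lower, so the share called was not far from that of other genes. In 17 of the 30 members the highest mean was in 456wt, against 27.3% of all genes tested, and the median difference of 456wt was 0.43 over the members and 0.05 over all genes on the log2 scale. Gdf10 was higher by 1.17 ± 0.11 (log2, SE, adjusted p = 6.73e-06), Fgf2 by 0.94 ± 0.23 (adjusted p = 0.00709) and Bmp6 by 0.83 ± 0.14 (adjusted p = 0.000732). Bmp5, Bmp4, Bmp1 and Bmp7 followed with 0.62, 0.48, 0.47 and 0.46. The member with the greatest difference was Fgf1, by 1.73 ± 0.26 (adjusted p = 0.000312), and Fgf14 was higher by 0.70. Fgf11 alone was lower in 456wt, by a log2 difference of -0.49 ± 0.05 (adjusted p = 1.42e-05).

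In 343wt, 8 of the 30 members were lower and 1 higher, where 25.6% of all genes were lower and 14.5% higher, so members were lower there about as often as other genes. Bmp7 was lower, with a log2 difference of -0.57 ± 0.04 (SE, adjusted p = 1.34e-06), and so was Bmp4, with -0.75 ± 0.07 (adjusted p = 9.72e-06). Fgf14, Gdf10, Bmp5, Bmp6 and Bmp1 were also lower. With 456wt left out of the fit, Gdf10, Bmp6 and Bmp5 were no longer called in 343wt (limma contrast). Their log2 differences were then -0.14, -0.19 and -0.29 (adjusted p = 0.48, 0.407 and 0.151). Bmp8a was lower in the 343wt contrast alone (adjusted p = 0.0369) and did not pass the F-test (adjusted p = 0.0845). It lost the call with a pseudocount of 1 (0.0552) or without library 3 of 343wt (0.167). Bmp2 was higher by 0.69 ± 0.21 (adjusted p = 0.0193). That call was lost without library 2 (0.0869) or library 3 (0.0759) of 343wt, and with 444wt left out (0.172). In 186wt, 6 members were lower (Bmp1, Fgf13, Bmp7, Fgf2, Bmp6 and Gdf10) and 0 higher, where 21.9% of all genes were lower and 14.8% higher. With 456wt left out, Bmp7, Gdf10, Fgf2 and Bmp6 were no longer called in 186wt (adjusted p = 0.0847, 0.127, 0.109 and 0.454). In 444wt, 5 members were higher (Bmp1, Fgf13, Bmp7, Fgf11 and Bmp4) and 2 lower (Fgf1 and Bmp2), where 26.5% of all genes were higher and 17.8% lower. With 343wt left out, Bmp4 and Bmp1 were no longer called in 444wt (limma contrast). Their log2 differences were then 0.08 and 0.10 (adjusted p = 0.466 and 0.0673). The call of Bmp1 was also lost without 186wt (0.08, adjusted p = 0.249). The call of Fgf13 in 444wt was marginal (adjusted p = 0.0483) and was lost under both rescalings (0.0739 and 0.104), without the filter on level (0.0605) and without library 2 of 444wt (0.26), and its call in 186wt (0.0355) was lost without library 3 of 186wt (0.181). Fgf8 passed the F-test (adjusted p = 0.0398) but none of the 4 contrasts. The 4 contrasts share their libraries and are not independent of each other. Without 456wt the F-test called 7 members.

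**Figure D2:**
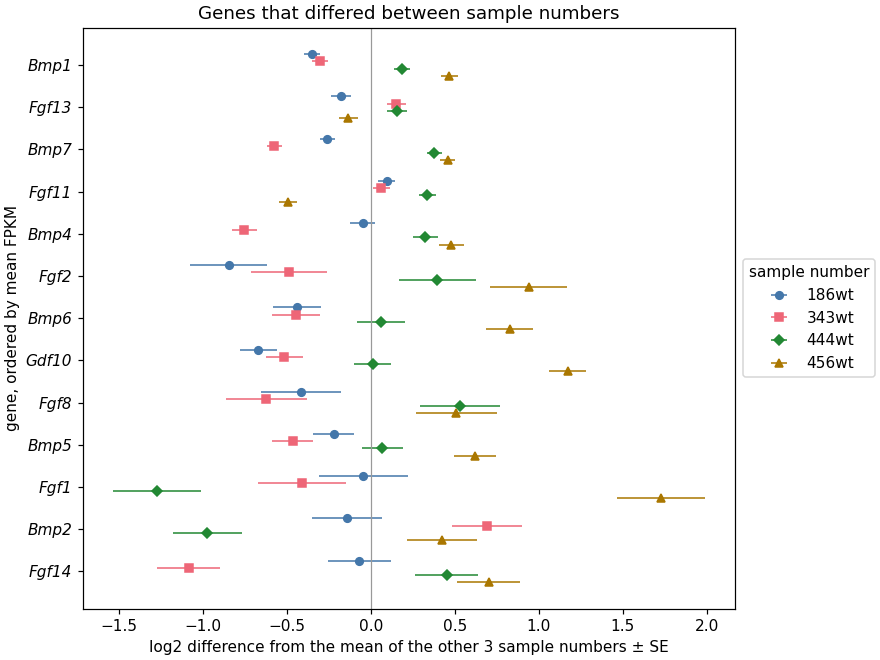
Log2 difference ± SE of each sample number from the mean of the other 3, for the 13 genes that passed the F-test, ordered by mean FPKM. The points of 456wt lie to the right for all but Fgf13 and Fgf11, and those of 343wt to the left for all but Fgf13, Fgf11 and Bmp2.

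The 17 tested members that did not pass included Fgf18, with an F-test adjusted p of 0.806 and a range from 1.99 to 2.27 FPKM, Fgf22 (0.289), Gdf1 (0.9) and Bmp8b (0.0859). For Gdf1 the SE of a contrast was 0.77 on the log2 scale, so differences well above that size could go undetected. The counts behind the low members were small, at an estimated 44.5 fragments over all 12 libraries for Fgf21 and 42.3 for Gdf7, beside 5832 for Bmp7.

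**Figure D3:**
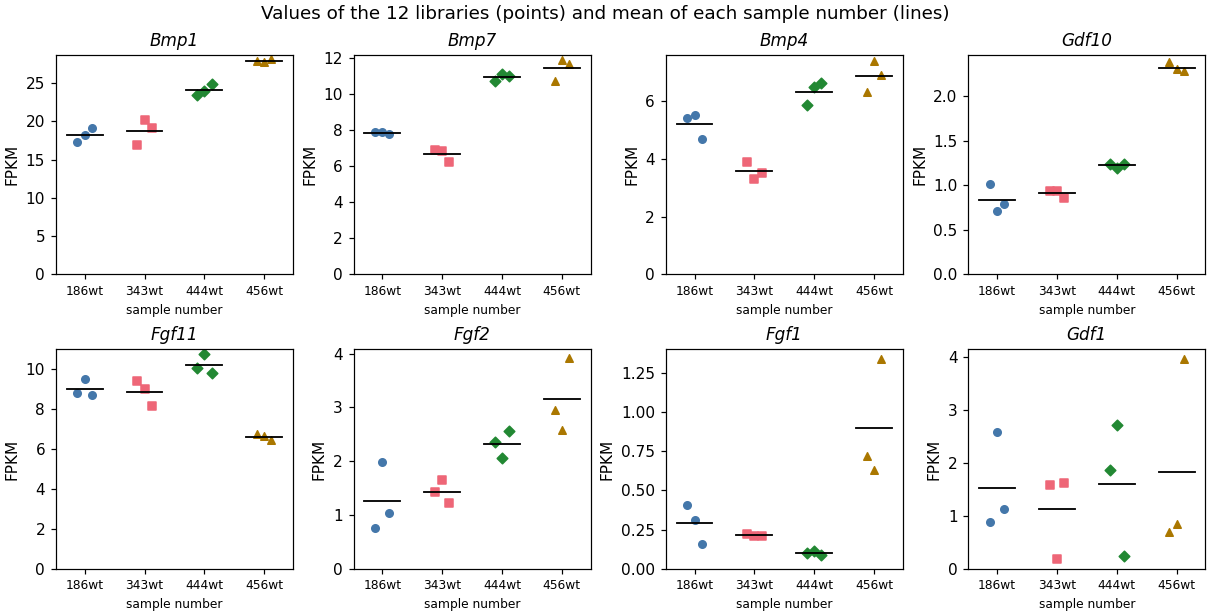
FPKM of each of the 12 libraries (points) and the mean of each sample number (lines) for 8 genes, with each vertical axis starting at 0. The libraries of Bmp7 and Gdf10 are close within a sample number, while those of Gdf1 run from 0.18 to 3.96 FPKM.

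Markers of other testis cells and of germ cell stages moved between the same sample numbers. The summed level of the 6 peritubular myoid cell markers was 553 FPKM in 186wt, 261 in 343wt, 695 in 444wt and 1161 in 456wt, with all 6 lower in 343wt and all 6 higher in 456wt, which is the order of Bmp7 and Bmp4. Endothelial markers were between 14.5 and 37.9 FPKM in sum, with all 6 higher in 456wt and all 6 lower in 444wt. The 9 Sertoli cell markers ran the other way, with sums of 3070 and 3155 FPKM in 186wt and 343wt and of 1744 and 1929 FPKM in 444wt and 456wt, and all 9 called in each contrast. Most of each sum was Clu, at 2289 and 2380 FPKM in 186wt and 343wt and at 1251 and 1456 FPKM in 444wt and 456wt. Clu, Fshr, Cldn11 and Gata1 were lowest in 444wt, and Sox9, Wt1, Amh, Dhh and Inhbb in 456wt. Leydig cell markers summed to 110 FPKM in 343wt but to 16.1 FPKM in 444wt, and macrophage markers to 33.8 and 8.21 FPKM, which is the order of Bmp2, high in 343wt and low in 444wt. Meiotic markers were highest in 444wt and lowest in 343wt, at 358 and 215 FPKM, with all 8 higher in 444wt. Fgf11 was also highest in 444wt but lowest in 456wt, at 6.6 FPKM, where the meiotic sum was 250 FPKM. The 6 markers of undifferentiated spermatogonia summed to 78.2 FPKM in 186wt, 92.1 in 343wt, 120 in 444wt and 117 in 456wt, with all 6 lower in 186wt and 4 higher in both 444wt and 456wt. The 5 markers of differentiating spermatogonia summed to 215, 225, 350 and 287 FPKM in the same order, with all 5 lower in both 186wt and 343wt, 5 higher in 444wt and 4 higher in 456wt. Bmp1, Bmp7 and Fgf2 were likewise lower in 186wt, and Bmp1 and Bmp7 higher in 444wt and 456wt. The 444wt call of Bmp1 was lost when 186wt or 343wt was left out, and the 186wt calls of Bmp7 and Fgf2 when 456wt was. Round spermatid markers summed to 2.38 to 4.30 FPKM, with 1 of 6 (Prm2) at 0, and no marker of the other lists was at 0. The part of cell makeup in the differences between sample numbers was not tested.

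**Figure D4:**
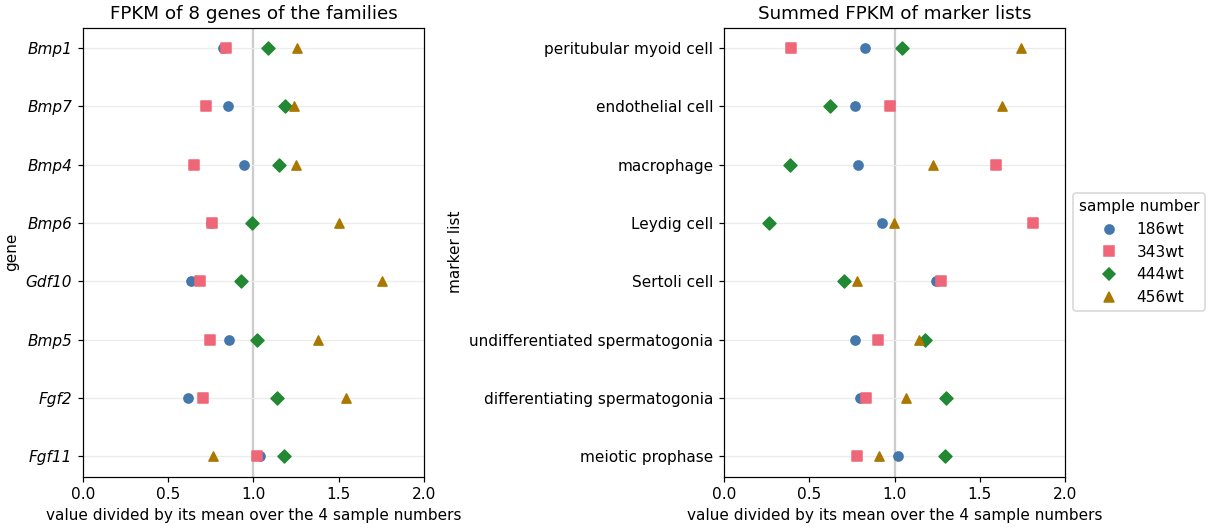
Value in each sample number divided by its mean over the 4, for 8 genes of the families (left) and for the summed FPKM of 8 marker lists (right). The peritubular sums are lowest in 343wt (261 FPKM) and highest in 456wt (1161 FPKM). The Sertoli sums, which are mostly Clu, are lowest in 444wt (1744 FPKM) and highest in 343wt (3155 FPKM).

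The receptors and regulators of both pathways were taken from lists, of which 57 genes were found and 54 tested. Their median level was 8.14 FPKM, above the 0.357 FPKM of the ligand genes, and 41 of the 54 passed the F-test (75.9%), beside the 75.8% of all genes at 1 FPKM or more. Of the FGF receptors, Fgfr1, the main receptor for FGF1 and FGF2 in many tissues, was at 22.4 ± 3.87 FPKM (SD, n = 4) and is listed under 2 identifiers, of which the higher was used. The decoy-like Fgfrl1 was at 19.97 FPKM, Fgfr3 at 7.04, Fgfr2 at 5.67 and Fgfr4 at 0.652 FPKM. The Klotho co-receptors that endocrine FGFs need were at 0.247 FPKM (Kl) and 0.0475 FPKM (Klb), as low as those ligands. Fgfr1, Fgfr2, Fgfr3 and Fgfr4, 4 of the 6 tested genes of this list, were higher in 456wt by the limma contrast, where 22.9% of all genes were higher. Here and for the lists below, shares higher or lower in a sample number are over all genes tested. They were not computed for genes of the same level, although calls of the F-test followed the level. Fgfr1 was at 27.2 FPKM there against 18.9 to 23.9 FPKM elsewhere. The contrast of Fgfr4 was marginal (adjusted p = 0.045), and Fgfr4 did not pass the F-test (adjusted p = 0.135).

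Of the 11 FGF feedback genes and targets measured, all at 1 FPKM or more, 10 passed the F-test, beside 75.8% of all genes at that level. In 456wt 7 were higher and 1 lower, beside 22.9% and 13.6% of all genes tested, which include genes under 1 FPKM. The highest were the ERK phosphatase gene Dusp6 at 45.3 FPKM, Spry1 at 16.1, Etv5 at 14.7 and Spred1 at 10.3 FPKM. Etv5 encodes a transcription factor that spermatogonial stem cells need, and Spry1 and Spred1 encode inhibitors of the RAS pathway. Spry1 was at 12.96 FPKM in 186wt, 8.36 in 343wt, 16.5 in 444wt and 26.4 in 456wt, the order of the peritubular sums. Etv5 was highest in 343wt, at 16.7 FPKM.

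On the BMP side, the type I receptors were led by Bmpr1a (ALK3), which binds BMP2 and BMP4, at 40.8 ± 2.81 FPKM (SD, n = 4). Tgfbr1 (ALK5) was at 24.7 FPKM, Acvr1b (ALK4) at 10.98, Acvrl1 (ALK1) at 10.1, Acvr1 (ALK2) at 6.42, Bmpr1b (ALK6) at 0.913 and Acvr1c (ALK7) at 0.117 FPKM. Acvrl1 was present although the genes for its ligands Bmp10 and Gdf2 were near or at 0, and it was higher in 456wt, at 13.1 FPKM. The type II receptors Bmpr2, Acvr2b and Acvr2a were at 17.5, 14.9 and 8.79 FPKM. Of these 10 receptors 8 passed the F-test, near the 75.8% of all genes at 1 FPKM or more. In 456wt 2 of them were higher (Acvrl1 and Acvr2b) and 4 lower, where 22.9% of all genes were higher and 13.6% lower.

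Among the 16 extracellular antagonists, which bind BMPs or GDFs and keep them from their receptors, 14 reached 0.1 FPKM. Of these, 8 passed the F-test, beside 58.2% of all genes tested. The highest were Twsg1 at 31.8 FPKM, Fstl3 at 29.2, Nbl1 (DAN) at 20.4 and Crim1 at 10.4 FPKM. In 456wt 4 were higher and 2 lower, where 22.9% of all genes were higher and 13.6% lower. The SMAD genes were led by the TGF-beta and activin transducer Smad2 at 47.1 FPKM and the shared partner Smad4 at 37.3 FPKM, ahead of Smad3 at 21.8, the BMP transducers Smad5 at 18.5 and Smad1 at 10.7, and Smad9 at 0.457 FPKM. Of these 6 genes 3 passed the F-test, beside 75.8% of all genes at 1 FPKM or more.

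The last list holds target genes of BMP signalling. The Id genes encode inhibitors of helix-loop-helix factors and are induced by SMAD1 and SMAD5, and they were at 43.5 FPKM (Id2), 35.9 (Id3), 21.4 (Id1) and 7.94 FPKM (Id4). Smad7 and Smad6, inhibitors in the same loop, were at 12.3 and 2.93 FPKM, and the pseudoreceptor gene Bambi at 4.06 FPKM. All 7 passed the F-test, beside 75.8% of all genes at 1 FPKM or more. In 343wt, where Bmp7 and Bmp4 were lowest, 6 were higher and 0 lower, where 14.5% of all genes were higher, and in 444wt 4 were lower and 0 higher, where 17.8% of all genes were lower. In 456wt 2 were higher (Id3 and Id4, which like Bmp7 and Bmp4 were highest there) and 2 lower (Id2 and Smad7), where 22.9% of all genes were higher and 13.6% lower. The shares for single sample numbers are over all genes tested, while all 7 of these genes were at 1 FPKM or more. Id2 was highest in 343wt, at 52.99 FPKM, and lowest in 444wt, at 32.6 FPKM. This is the order of Clu, which makes up most of the Sertoli sums given above, but not of all Sertoli markers. Sox9, Wt1, Amh, Dhh and Inhbb were lowest in 456wt. The ligand gene Bmp2, unlike Bmp7 and Bmp4, was also highest in 343wt (0.52 FPKM) and lowest in 444wt (0.163 FPKM). This is a description over 4 sample numbers, and the part of cell makeup in it was not tested.

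**Figure D5:**
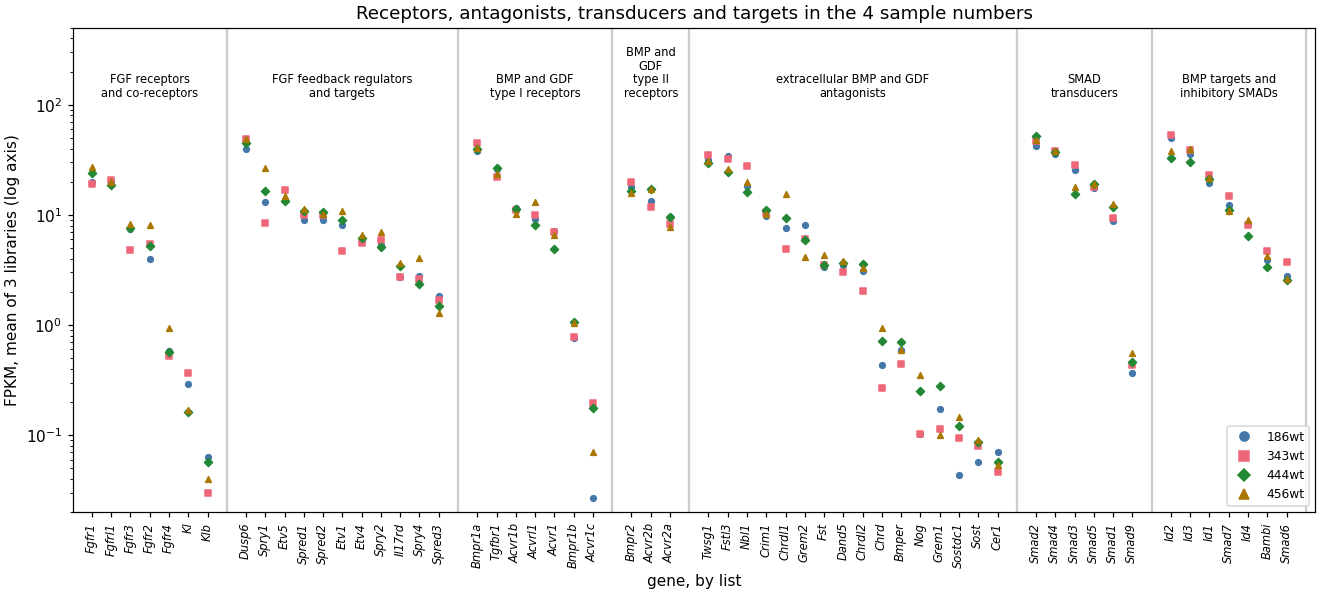
Mean FPKM of each sample number on a log axis for the genes of 7 lists, ordered by level within each list. Bmpr1a, at 40.8 FPKM, leads the type I receptors and Dusp6, at 45.3 FPKM, the FGF feedback genes, while Klb and Acvr1c are near 0.1 FPKM or below.

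The other ligands of the TGF-beta superfamily and the GDNF family reached higher levels. Of 15 genes, 10 were at 1 FPKM or more and 10 of the 13 tested passed the F-test, again near 75.8%. The highest were the inhibin and activin subunit genes Inha, at 302 ± 96.6 FPKM, and Inhbb, at 44.7 FPKM, with Amh, anti-Müllerian hormone, at 70.1 FPKM and Tgfb3 at 16.6 FPKM. Amh and Inhbb are also in the Sertoli cell list. Bmp7 at 9.23 FPKM was thus below each of these 4 ligand genes, in FPKM. All 4 were lower in 456wt, with log2 differences from -0.16 (Tgfb3) to -0.74 (Amh), where Bmp7 was higher. Of the same list 3 genes were higher in 456wt, namely Tgfb2 (0.71), Lefty1 (1.03) and Nrtn (0.31). Of all genes 13.6% were lower and 22.9% higher there.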

How the data were processed

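RNA of B6 germ cells at 12 dpp was sequenced in 12 libraries (4 sample numbers, 3 libraries each). The authors aligned reads with Bowtie 0.12.9 to the NCBI build 37 transcriptome and deposited FPKM from RSEM 1.2.8, with 2 decimals. No strand setting is given in the sources used here. RSEM divides reads among transcripts they match equally well, which makes values of overlapping or copied genes uncertain. The number of value columns left unused was 0.

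For levels, libraries were averaged by sample number. For differences, R 4.3.3 and its package limma 3.58.1 (lmFit, eBayes with trend) were run on log2(FPKM + 0.1) of the 12 libraries, not averaged. This was done over genes whose mean reached 0.1 FPKM, with Benjamini-Hochberg adjustment over all genes, as an F-test and as contrasts of each sample number with the others. On this scale changes of low genes are understated. To estimate depth, inverse low values were regressed on transcript length (Theil-Sen), over genes with 1 transcript of 300 to 500 bases. Scripts were tested on simulated data. Positions are from GENCODE M1, where 37205 gene identifiers matched. Python 3.11.15 with numpy 2.4.6, pandas 2.3.3, scipy 1.17.1 and matplotlib 3.10.9 gave the other values.

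The members and lists were chosen with earlier results of these data known. Members at 1 FPKM or more were named with every sample number, those from 0.1 to 1 FPKM with mean and range, those below with their libraries at 0, and of each list of receptors and regulators all genes up to 7, otherwise the 4 highest. Other pathway genes and markers were named after their values were seen. Alternatives were other pseudocounts, filters, rescalings, eBayes without trend, a replicate block, and leaving out libraries or sample numbers.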

Additional observations from a re-analysis of the deposited data

Results flagged for a closer look

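Fgf22 stood out because 1 of its 4 sample numbers lay far from the rest. It was at 2.65 FPKM in 444wt and at 1.58 to 1.74 FPKM in the others, a gap of 0.848 of the whole range, although its libraries overlapped and its F-test adjusted p in limma was 0.289. The FGF receptor gene Fgfr4 stood out in the same way in 456wt, at 0.937 FPKM against 0.52 to 0.58 FPKM, with a gap of 0.856 of the range. Among 97 genes checked, chance alone would set about 4.85 apart in this way, and 2 were found.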

How the results depend on the processing

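The count of 13 members that differed between sample numbers was 12 to 14 under other pseudocounts, no filter, both rescalings and eBayes without trend, 10 with a filter of 1 FPKM, 9 without Bmp1 and the FGF homologous factors, and 13 without Gdf1 (these last 2 chosen after seeing the data). Leaving out libraries or sample numbers in turn gave 7 to 16 members, 31 to 38 pathway genes (41 with all libraries), and 2 to 8 members for 186wt, 5 to 15 for 343wt, 5 to 11 for 444wt and 10 to 13 for 456wt, beside 6, 9, 7 and 10 with all libraries. Without 456wt the counts were 7 members between sample numbers, 2 for 186wt, 5 for 343wt and 11 for 444wt, and without 186wt the count for 343wt was 15. These fits have fewer samples. With the library number as a replicate block, 12 members and 39 pathway genes were called, and among single differences Bmp8a in 343wt (adjusted p = 0.062) and Fgf13 in 186wt and 444wt (0.0525 and 0.0671) were no longer called. Libraries of the same number did not pair, since their deviations correlated at -0.0648 to 0.1284 over 18 pairs. The number of members was 15 at a bound of 1 FPKM, beside 30 at 0.1 FPKM, and 29 to 31 at 0.1 FPKM when a sample number was left out. Of the refits of the 32 called differences of single members, 666 kept the call, 63 lost it and 0 changed direction. Fgf13, Bmp8a, Bmp6, Bmp2, Fgf2, Bmp5, Bmp7, Fgf14, Gdf10, Bmp1 and Bmp4 each lost at least 1 call. Depth limits members under 0.1 FPKM, which rest on at most 56.8 estimated fragments each.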
